A study of Mus musculus with 36 samples.

Results

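Livers of old mice (18 months) were compared with livers of young mice (4 months) at the time point labelled 48 of a regeneration series in mice of the inbred strain C57BL/6JN. The comparison used the 6 libraries whose labels give the time point 48, 3 per age, out of 36 libraries in 12 groups of age and time point. The labels give no unit for the time points and do not say how regeneration was induced, so 48 is used only as a label. The 12 groups share strain, tissue and protocol, and the submitters named old mice as the treated group. Total RNA was depleted of ribosomal RNA before sequencing, so unspliced and non-polyadenylated RNA, such as that of replication-dependent histone genes, was also measured. Replicates are described as biological, and no label ties a library to a named animal.

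As background, hepatocytes of an adult liver rarely divide. After loss of tissue they leave quiescence, copy their DNA and divide, and the liver regains its mass from its own mature cells. Entry into S phase is driven by cyclin and CDK activity that releases E2F factors from the retinoblastoma family. Transcription of mitotic genes comes later, through the MuvB core with MYBL2 and FOXM1. Hepatocytes also store fat in droplets for a time while they regenerate, and many of their metabolic genes are lowered.

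The 6 libraries held 3929035 to 6034446 counts and 15669 to 16242 detected genes. Levels are given as CPM (counts scaled to a common library total) with totals scaled by the TMM method, in the order of replicates 1, 2 and 3, and are not corrected for transcript length. All 8 hepatocyte markers checked were abundant in every library, from Ttr at 143 to 535 CPM to Apob at 21387 to 38195 CPM, so the liver label held. In each age, 1 library carried Y-linked transcripts (young replicate 3 and old replicate 1), and the others carried Xist.

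Old replicate 2 stood apart. Its log2 levels correlated with those of old replicates 1 and 3 at 0.913 and 0.895 across genes, while old replicates 1 and 3 correlated at 0.956 and young pairs at 0.966 to 0.981. With the young libraries, old replicates 1, 2 and 3 correlated at means of 0.938, 0.859 and 0.958. Old replicate 3 was thus as close to young libraries as to old replicate 1 by this measure. The biological coefficient of variation was 40.5% in the old group at 48 and 27.6% there without that library, while the 11 remaining groups lay between 19.3% and 27.2%. In old replicate 2, Cyp7a1, the rate-limiting enzyme of bile acid synthesis, was at 1.01 CPM against 62.0 and 538 CPM in the other old libraries. Plin4, a lipid droplet coat protein, was at 619 CPM against 20.9 and 7.36 CPM. These 2 genes were picked for their distance after their values were seen. Results are therefore given with and without old replicate 2.

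The promoters of cell cycle genes that were lower in old liver are shown first, because nearly all members of the mitosis list were called lower. Sequences are the 250 bases before the annotated start in RefSeq's GRCm38.p6 annotation, the build that the submitters' processing notes name, and are written on the gene's strand from 5′ to 3′. Capitals mark the motifs searched on both strands: CCAAT (the CCAAT box bound by NF-Y, ATTGG on the other strand) and TTTGAA (the cell cycle genes homology region, CHR, bound by the MuvB complex). The E2F motifs TTTCCCGC and TTTGGCGC were searched too and were not found in these 6 windows. Rrm1 and Tyms are DNA replication genes and Mastl and Spc25 mitotic genes, each among those with the smallest p. Ccnb1 and Cdk1 were added after the search.
Rrm1 (ribonucleotide reductase large subunit), chr7:102441445-102441694, plus strand: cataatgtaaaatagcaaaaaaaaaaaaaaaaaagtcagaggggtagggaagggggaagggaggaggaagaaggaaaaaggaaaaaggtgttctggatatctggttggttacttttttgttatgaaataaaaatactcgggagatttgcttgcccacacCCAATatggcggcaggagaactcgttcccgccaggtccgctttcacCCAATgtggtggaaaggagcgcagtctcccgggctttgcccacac
Tyms (thymidylate synthase), chr5:30073626-30073875, minus strand: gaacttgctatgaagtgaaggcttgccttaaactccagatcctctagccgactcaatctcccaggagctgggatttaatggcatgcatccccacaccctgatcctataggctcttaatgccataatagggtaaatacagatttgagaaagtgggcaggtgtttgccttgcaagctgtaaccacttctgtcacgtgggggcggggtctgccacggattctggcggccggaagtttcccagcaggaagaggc
Mastl (Greatwall kinase), chr2:23156025-23156274, minus strand: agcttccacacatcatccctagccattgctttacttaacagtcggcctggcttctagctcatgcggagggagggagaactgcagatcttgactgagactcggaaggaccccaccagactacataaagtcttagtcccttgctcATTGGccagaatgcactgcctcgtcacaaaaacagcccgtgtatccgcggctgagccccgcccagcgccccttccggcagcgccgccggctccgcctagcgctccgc
Spc25 (NDC80 kinetochore complex subunit), chr2:69206214-69206463, minus strand: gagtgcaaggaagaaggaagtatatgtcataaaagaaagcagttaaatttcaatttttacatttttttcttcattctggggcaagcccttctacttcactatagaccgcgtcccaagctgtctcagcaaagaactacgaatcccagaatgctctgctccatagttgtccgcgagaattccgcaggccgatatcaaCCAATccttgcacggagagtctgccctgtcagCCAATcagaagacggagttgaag
Ccnb1 (cyclin B1), chr13:100786487-100786736, minus strand: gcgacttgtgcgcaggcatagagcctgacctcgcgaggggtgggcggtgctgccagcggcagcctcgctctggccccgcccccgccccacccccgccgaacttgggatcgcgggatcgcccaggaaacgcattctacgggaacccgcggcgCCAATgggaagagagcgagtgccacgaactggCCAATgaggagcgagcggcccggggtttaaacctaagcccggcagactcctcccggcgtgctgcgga
Cdk1 (the mitotic kinase), chr10:69352913-69353162, minus strand: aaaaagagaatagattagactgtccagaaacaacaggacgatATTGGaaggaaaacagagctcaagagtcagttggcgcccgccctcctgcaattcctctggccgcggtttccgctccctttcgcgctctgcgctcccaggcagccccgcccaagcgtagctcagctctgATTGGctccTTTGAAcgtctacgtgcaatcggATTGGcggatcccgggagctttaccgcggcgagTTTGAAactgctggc

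Ccnb1 held CCAAT motifs whose leftmost bases lay 99 and 67 bases before the start, and Spc25 held them at 55 and 23 bases. Cdk1 held 3 CCAAT motifs, at 208, 80 and 48 bases, and 2 TTTGAA motifs, at 71 and 15 bases. Among all 32851 promoter entries of the same length, 33.85% held CCAAT and 15.99% held TTTGAA. For the genes tested here the shares were 35.06% and 11.09%. In the 790 entries of genes called lower in old liver they were 50.63% and 18.1%, and in the 603 entries of genes called higher they were 30.85% and 9.95%. Of the 47 entries of mitotic genes called lower, 37 (78.72%) held CCAAT and 17 (36.17%) held TTTGAA. Of the 29 entries of DNA replication genes called lower, 14 (48.28%) held CCAAT and 6 (20.69%) held either E2F motif, which 2.282% of entries of all tested genes held. These shares are descriptions of letters in a fixed window.

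Across the 13436 genes tested, edgeR's quasi-likelihood test with Benjamini-Hochberg adjustment called 1505 between the ages at 48 (11.2% of genes). Of these, 594 were higher in old liver (4.42%) and 911 lower (6.78%). Without old replicate 2, 685 of 13682 genes were called (5.01%), 174 higher (1.27%) and 511 lower (3.73%). Without young replicate 1, 840 were called, 241 higher and 599 lower. The lower calls overlapped more than the higher ones by these counts: 477 genes were lower in both fits, 52.4% of the 911 and 93.3% of the 511. For higher genes, 137 were shared, 23.1% of the 594 and 78.7% of the 174. Old replicate 2 was the most extreme of the old libraries for 465 of the 594 higher genes and 694 of the 911 lower genes. All 911 lower genes and 589 of the 594 higher genes had the same sign without it. In a fit of the 6 libraries alone only Rgs16 was called (0.00819% of 12208 genes, with 1885 at an unadjusted p under 0.05), and the same fit without old replicate 2 called 443, 126 higher (1.02%) and 317 lower (2.56%). Old and young values did not overlap for 437 of the 594 higher genes (73.6%) and 862 of the 911 lower ones (94.6%). Of all genes tested, 8.8% had old above young and 12.8% old below. The calls were made from these same values, so less overlap among called genes follows in part from the calling and is not separate support.

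**Figure D1:**
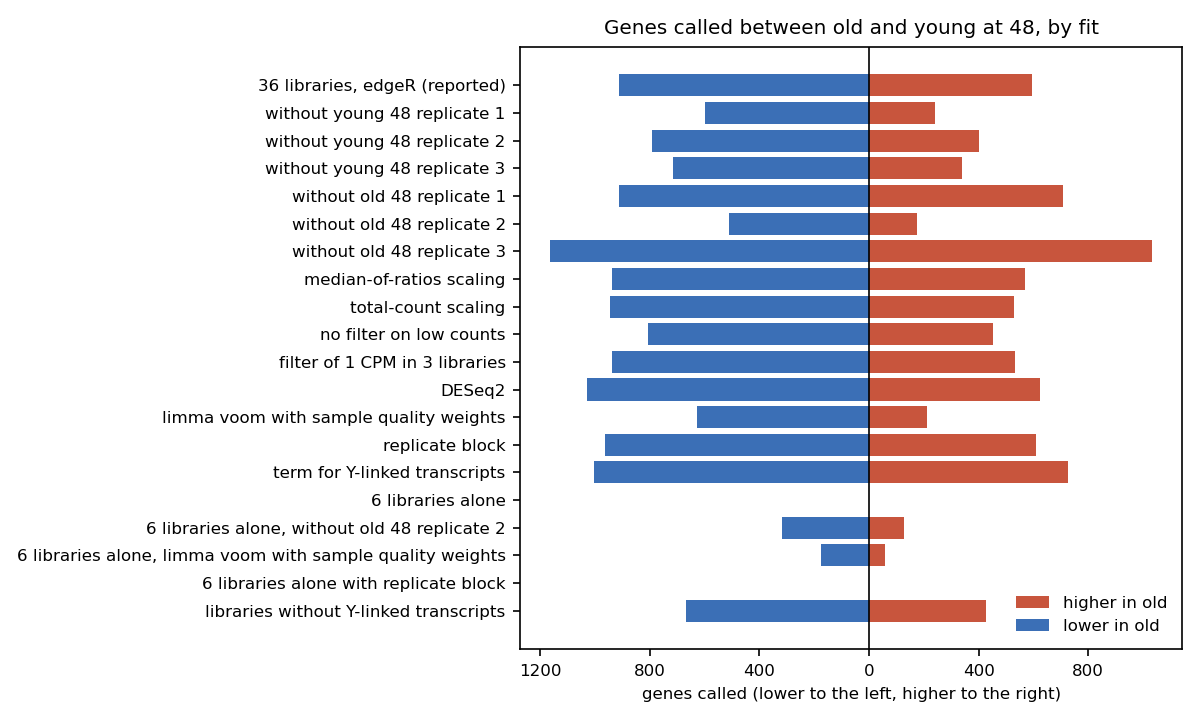
Number of genes called at an adjusted p under 0.05 between old and young liver at 48 under each fit, with genes lower in old to the left and higher in old to the right of 0. The reported fit called 911 lower and 594 higher, the fit without old replicate 2 called 511 and 174, and the fit of the 6 libraries alone called 1 gene.

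Cell division genes were lower in old liver as a group. Of 55 tested genes of mitosis and cytokinesis, 53 were lower and 0 higher, with a median log2 difference (old minus young) of -3.15, against 0.02 over all genes tested. Without old replicate 2, 48 were lower and the median was -2.66. In the 6 libraries without old replicate 2 alone, 19 were lower. Only Pttg1 (securin, log2 difference 0.02) and Cit (citron kinase, -0.90) were not called. In bulk tissue, fewer cells in division and less of each transcript per cell cannot be told apart. The summed level of the list was 8435, 4315 and 9399 CPM in young and 577, 160 and 1764 CPM in old libraries, with no overlap.

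Mki67, the nuclear proliferation antigen, was at 2595, 1404 and 2867 CPM in young and 154, 14.0 and 561 CPM in old libraries. Every old library was below every young one. The log2 difference was -3.23 ± 0.81 (SE, n = 3 against 3; adjusted p = 0.00941), and -2.68 without old replicate 2 (adjusted p = 0.0343). Ccnb1, which activates CDK1 at the entry into mitosis, was at 60.3, 33.1 and 87.0 CPM in young and 1.56, 0 and 9.0 CPM in old libraries. The count of 0 in old replicate 2 allows up to 0.608 CPM (3 counts, counting error only). The groups did not overlap, and the log2 difference was -4.08 ± 0.77 (adjusted p = 0.00124; -3.49 and 0.0091 without old replicate 2). Cdk1 itself was at 36.3, 17.3 and 34.2 CPM in young and 2.89, 1.01 and 7.16 CPM in old libraries, again with no overlap (-2.98 ± 0.64, adjusted p = 0.00287). When only the libraries at 48 without old replicate 2 were fitted, Mki67 (adjusted p = 0.184) and Ccnb1 (0.157) were not called. Cdk1 was called in that fit (0.0333).

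Mastl, which keeps the phosphatase PP2A inhibited during mitosis, was at 64.1, 37.8 and 68.0 CPM in young and 6.00, 7.09 and 11.7 CPM in old libraries. Its old values lay close together, and old replicate 2 was not the lowest. The log2 difference was -2.77 ± 0.35 (adjusted p = 4.77e-05), and -2.68 without old replicate 2. Spc25 was at 87.6, 45.5 and 65.5 CPM in young and 9.34, 13.4 and 17.2 CPM in old libraries, a log2 difference of -2.31 ± 0.33. The 10 lower genes with the largest differences included 6 that act in mitosis or chromosome maintenance. Besides Ccnb1 these were Cdc20, an activator of the anaphase-promoting complex (-3.90), Pif1, a DNA helicase (-4.11), Esco2, which acetylates cohesin (-4.08), Depdc1a, a mitotic protein (-3.82), and Hmmr, a spindle-associated hyaluronan receptor (-3.81). The others were the histone gene Hist1h2bn (-3.81), Neurl1b, an E3 ubiquitin ligase (-3.75), D17H6S56E-5 (-3.81) and Inmt, a methyltransferase (-4.53). Inmt was at 348, 455 and 34.2 CPM in young and 0.667, 1.22 and 34.2 CPM in old libraries, so the 2 replicates numbered 3 were at nearly the same level.

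The machinery of DNA replication was lower too, by a smaller median. Of 43 tested genes 32 were lower and 0 higher, with a median log2 difference of -1.37. Without old replicate 2, 17 were lower and the median was -1.27. Rrm1 was at 101, 70.1 and 80.1 CPM in young and 24.9, 15.6 and 20.5 CPM in old libraries. The groups were well apart, and the log2 difference was -2.05 ± 0.26 (adjusted p = 4.77e-05; -1.90 and 0.000976 without old replicate 2). Mcm2, a subunit of the replicative helicase, was at 76.6, 57.7 and 67.3 CPM in young and 57.3, 12.2 and 23.3 CPM in old libraries and was not called (-1.12 ± 0.47, adjusted p = 0.132). Its highest old value lay close to its lowest young value.

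Replication-dependent histone genes, which are transcribed mainly in S phase, were lower in 49 of 54 tested cases, with 0 higher and a median log2 difference of -2.29. Without old replicate 2, 43 were lower and the median was -1.79, and 44 were lower when only the remaining libraries at 48 were fitted. Hist1h2bn was at 70.6, 59.5 and 61.8 CPM in young and 4.00, 0.203 and 9.41 CPM in old libraries, and Hist1h3i was at 80.9, 68.0 and 68.5 CPM against 5.11, 1.22 and 11 CPM. Both sets of values were far apart. Members of these clusters are near-identical in sequence, so values of single histone genes are uncertain.

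DNA repair and checkpoint genes followed, with 25 of 29 lower, 0 higher and a median log2 difference of -1.42 (18 lower and -1.49 without old replicate 2). Atm, the kinase that signals double-strand breaks, was at 51.8, 53 and 48 CPM in young and 28.7, 23.3 and 28.0 CPM in old libraries (-0.93 ± 0.14, adjusted p = 0.00018). Brip1, a helicase partner of BRCA1, differed by -2.21 ± 0.40 (adjusted p = 0.000753). Lists of replication, repair and mitosis overlap in function, and their members share the same 6 libraries, so these counts are not independent of each other.

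Regulators of the G1 to S transition were more mixed: 10 of 27 were lower, 0 higher, with a median log2 difference of -0.54 (6 lower and -0.50 without old replicate 2). Of all genes tested, 6.78% were lower, and 3.73% without that library. Lin54, the DNA-binding subunit of the MuvB core, was at 69.3, 51.0 and 54.2 CPM in young and 23.3, 22.5 and 25.4 CPM in old libraries. The groups did not overlap, with a log2 difference of -1.29 ± 0.17 (adjusted p = 4.96e-05; -1.27 without old replicate 2). Foxm1, the activator of late cell cycle genes, was at 107, 52.5 and 138 CPM in young and 6.67, 2.03 and 24.3 CPM in old libraries (-3.16 ± 0.67, adjusted p = 0.00261). It was not called when only the libraries at 48 without old replicate 2 were fitted (adjusted p = 0.218). Rbl1, the retinoblastoma relative p107, differed by -1.89 ± 0.34. Ccnd1, cyclin D1, was at 547, 502 and 327 CPM in young and 448, 40.5 and 658 CPM in old libraries. The groups overlapped, only old replicate 2 was low, and the difference was not called (-0.26 ± 0.65, adjusted p = 0.846; 0.26 without that library). Ccne1, cyclin E1, was at 11.9, 9.05 and 12.8 CPM against 7.11, 2.63 and 5.32 CPM and was not called (adjusted p = 0.125).

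Among 23 CDK inhibitors and p53 targets, 6 were lower and 0 higher, and without old replicate 2, 3 were lower and 1 higher. The shares over all genes tested were 6.78% lower and 4.42% higher, and 3.73% and 1.27% without that library. The INK4 inhibitors Cdkn2c (189, 101 and 201 CPM in young, 16.2, 13.2 and 40.7 CPM in old) and Cdkn2d (24.3, 13.2 and 19 CPM against 4.00, 1.22 and 6.34 CPM) differed by -2.81 ± 0.40 and -2.29 ± 0.40. Both genes are known to be expressed in dividing cells, and their groups did not overlap. Cdkn1a, which encodes p21, was at 66.7, 39.3 and 78.4 CPM in young and 54.9, 191 and 69.7 CPM in old libraries. Only old replicate 2 was above the young range, and the difference was not called (0.78 ± 0.60, adjusted p = 0.459; 0.01 without it).

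Chromatin and DNA methylation regulators held 15 lower and 1 higher of 36, with a median log2 difference of -0.56. The shares over all genes tested were 6.78% lower and 4.42% higher. Here old replicate 2 was not the farthest by the list's median (-0.42 against -0.64 and -0.62 in old replicates 1 and 3), and 12 were lower and 1 higher without it. Cbx5, which encodes the heterochromatin protein HP1 alpha, was at 334, 332 and 360 CPM in young and 167, 138 and 182 CPM in old libraries (-1.08 ± 0.15, adjusted p = 0.000119). Suv39h1, a histone H3 lysine methyltransferase, differed by -1.81 ± 0.28, with no overlap between the ages. Ezh2, the catalytic subunit of Polycomb repressive complex PRC2, was at 34.3, 19.1 and 21.4 CPM against 9.56, 4.66 and 10.4 CPM (-1.61 ± 0.33, adjusted p = 0.00163; -1.34 and 0.0204 without old replicate 2). The only higher member was Kdm6b, a histone H3 demethylase, named after its values were seen, at 43.1, 42.2 and 57.4 CPM in young and 92.9, 74.1 and 62.2 CPM in old libraries (0.68 ± 0.18).

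**Figure D2:**
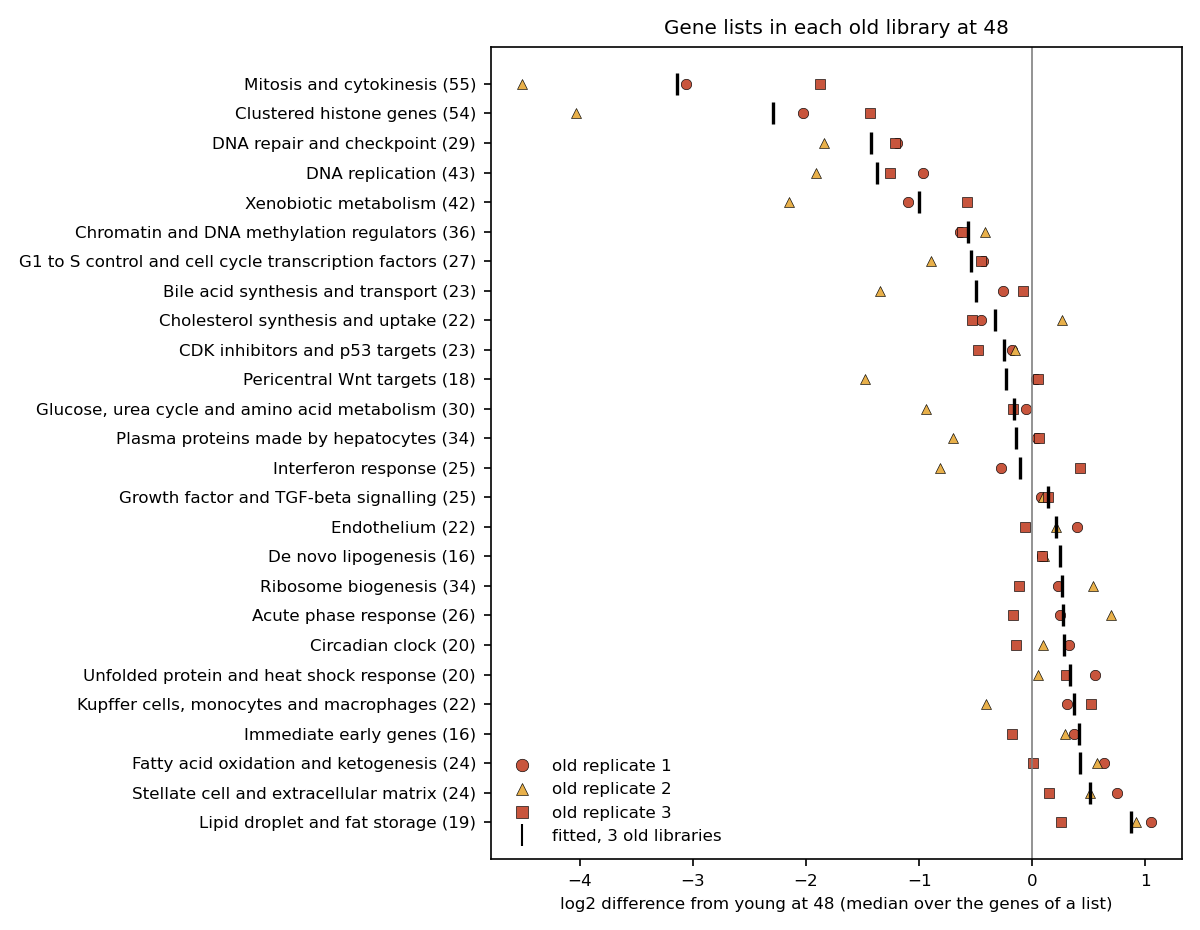
Median log2 difference of each old library from the mean of the young libraries at 48, taken over the tested genes of each list (number in brackets), with the median of the fitted differences as a black bar. In mitosis the 3 old libraries lay at -3.07, -4.51 and -1.87, while in pericentral Wnt targets only old replicate 2 was clearly below 0, at -1.48.

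The same lists were followed at the neighbouring time points. The mitosis list summed to 192 to 263 CPM in young and 170 to 352 CPM in old libraries before regeneration. At 72 it summed to 1294 to 4731 CPM in young and 2052 to 4949 CPM in old libraries. The ranges of the ages thus overlapped before and at 72 and were apart at 48. The median age difference of the list was 0.35 before and 0.17 at 72. Old replicate 2 at 48, with 160 CPM, lay below every library before regeneration, and old replicates 1 and 3 lay above them. The DNA replication list summed to 1883, 1457 and 1505 CPM in young and 740, 339 and 596 CPM in old libraries at 48, and to 565 to 984 CPM in young and 686 to 840 CPM in old libraries at 72.

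**Figure D3:**
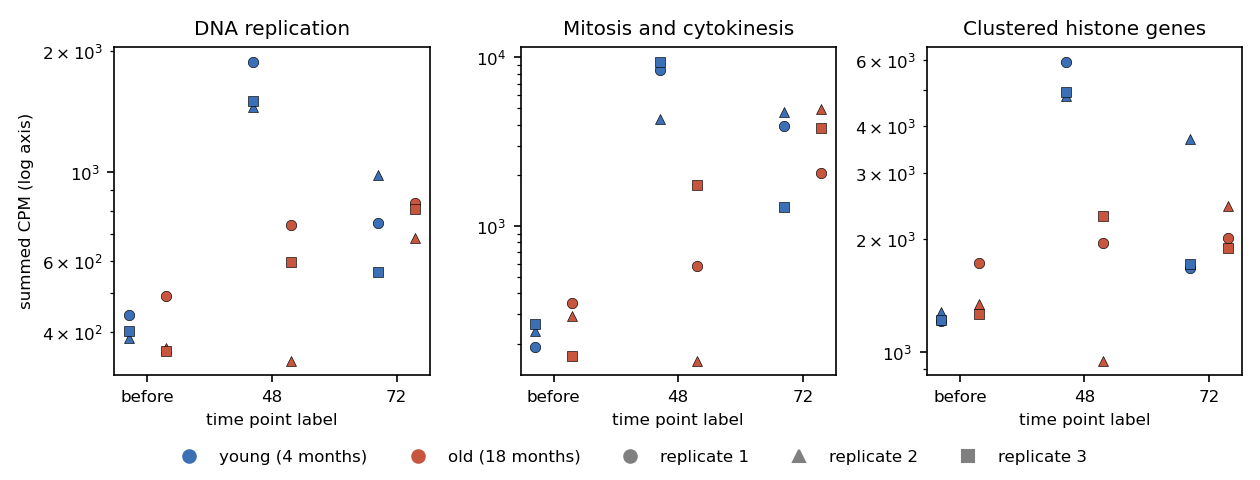
Summed CPM (log axis) of the DNA replication, mitosis and histone lists in each library before regeneration, at 48 and at 72, with color for age and marker shape for replicate number. At 48 the 3 young libraries sat above the 3 old ones in each panel, and at 72 the ages overlapped.

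Whether the age difference at 48 differed from that at the other times was tested in the same model. The difference of age differences, 48 minus before, was called for 186 genes, 51 higher (0.38%) and 135 lower (1%), and for 49 without old replicate 2. It rested on other libraries too, with 18 calls without young replicate 1, 61 without young replicate 3 and 961 without old replicate 3. For 48 minus 72, 303 genes were called, 55 higher (0.409%) and 248 lower (1.85%), against 56 without old replicate 2, 45 without young replicate 1, 79 without young replicate 3 and 825 without old replicate 3. Of the mitosis list, 5 genes were lower for 48 minus before and 34 for 48 minus 72. The list's medians were -3.52 and -3.20, so the counts do not rank the size of the 2 differences. Ccnb1, at 0 to 1.64 CPM before, had an SE of 1.95 for 48 minus before and 1.01 for 48 minus 72. Both differences use the same libraries at 48.

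Gas2l3, a cytoskeletal linker that acts in cytokinesis, was at 114, 69.3 and 120 CPM in young and 12.4, 13.6 and 27.4 CPM in old libraries at 48. Before, it was at 12.4 to 23.7 CPM in young and 20.8 to 25.8 CPM in old, and at 72 at 26.0 to 59.8 and 37.1 to 82.4 CPM. The age difference at 48 differed from that before by -2.90 ± 0.50 (adjusted p = 0.00663; 0.0276 without old replicate 2) and from that at 72 by -2.79 ± 0.48 (adjusted p = 0.00621). Cbx5 and Tmem194, a nuclear envelope protein, followed with -1.27 ± 0.22 and -2.51 ± 0.40 for 48 minus before. For 48 minus 72, Lin54 differed by -1.37 ± 0.24 and Eri2, an exonuclease family member, by -2.22 ± 0.38. Rrm1 differed by -2.09 ± 0.38 (adjusted p = 0.00908) against before and by -2.01 ± 0.36 against 72.

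Atrn, attractin, a membrane protein, showed the opposite sign. It was at 152, 173 and 188 CPM in young and 413, 442 and 277 CPM in old libraries at 48, while before it was at 267 to 284 CPM in young and 164 to 181 CPM in old libraries. The ages did not overlap at either time. The age difference at 48 minus that before was 1.79 ± 0.24 (adjusted p = 0.00032; 0.0015 without old replicate 2). Cpxm1, a carboxypeptidase family member, differed by 5.31 ± 0.91 for 48 minus 72. Its levels were low, at 0.980, 0.776 and 0.986 CPM in young and 4.67, 16.8 and 1.43 CPM in old libraries at 48, and at 72 they were 3.31 to 8.99 CPM in young and 1.03 to 1.72 CPM in old libraries.

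Among the metabolic lists, drug-metabolising enzymes, the longest list, held the most lower calls. Of 42 tested, 11 were lower and 0 higher, with a median log2 difference of -1.0, and 5 were lower without old replicate 2 (median -0.74). Among all genes tested 6.78% were lower, and 3.73% without that library. Cyp1a2, a pericentral cytochrome P450, was at 665, 677 and 613 CPM in young and 22.5, 30.2 and 110 CPM in old libraries. Young values were tight, old replicate 2 lay inside the range of the other old libraries, and the log2 difference was -3.58 ± 0.59 (adjusted p = 0.000465; -3.30 and 0.00639 without it). Cyp1a2 was not called when only the libraries at 48 without old replicate 2 were fitted (adjusted p = 0.156). Gsta3, a glutathione transferase, was at 356, 358 and 186 CPM against 73.1, 18.2 and 114 CPM (-2.14 ± 0.41). Of 18 pericentral Wnt targets only Cyp1a2 was called, so the other members did not share its difference at this threshold. Cyp2e1, another member, was at 1436, 1684 and 1145 CPM in young and 1083, 652 and 983 CPM in old libraries (-0.65 ± 0.34, adjusted p = 0.238).

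Of 34 plasma protein genes tested, 1 was called, the inter-alpha-trypsin inhibitor heavy chain Itih2, at 941, 881 and 748 CPM in young and 1541, 1790 and 1086 CPM in old libraries (0.78 ± 0.21, adjusted p = 0.0153; 0.129 without old replicate 2). Alb, albumin, was at 9286, 8811 and 7610 CPM in young and 4768, 4057 and 9078 CPM in old libraries. The ages overlapped and Alb was not called (-0.52 ± 0.22, adjusted p = 0.139). Cyp7a1 was at 209, 743 and 289 CPM in young and ranged from 1.01 to 538 CPM in old libraries, and it was not called (adjusted p = 0.561). In bile acid synthesis and transport, 3 of 23 were lower, among them Akr1d1, a steroid reductase (-1.93 ± 0.59), and Slc27a5, a bile acid CoA ligase (-0.96 ± 0.29). Of 30 genes of glucose, urea cycle and amino acid metabolism 3 were lower, including Otc, a urea cycle enzyme, at 120, 165 and 97.6 CPM in young and 11.6, 14.4 and 103 CPM in old libraries. Over all genes tested 6.78% were lower, and neither list held a call without old replicate 2.

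Fat storage genes were the list with the most higher calls. Of 19 tested, 9 were higher and 0 lower (median log2 difference 0.88), and 3 were higher and 1 lower without old replicate 2 (median 0.71). Among all genes tested 4.42% were higher, and 1.27% without that library. G0s2, an inhibitor of the lipase ATGL, was at 52.9, 50.4 and 55.9 CPM in young and 431, 391 and 144 CPM in old libraries. All old libraries lay above the tight young cluster, with a log2 difference of 2.60 ± 0.53 (adjusted p = 0.00205; 2.42 and 0.0144 without old replicate 2). Cidec, which enlarges lipid droplets, was at 2.29, 2.59 and 5.17 CPM in young and 179, 213 and 6.75 CPM in old libraries, so old replicate 3 was close to the young range (5.33 ± 1.32, adjusted p = 0.009). Cidea, a relative of Cidec, had 1 count in the young libraries together and 224 in the old ones, a ratio of 219.6 with a 95% counting interval of 39.0 to 8712. Old replicate 1 alone was at 48.0 CPM, and the others at 1.22 and 0.409 CPM. Fabp4, a fatty acid carrier, was at 1.47, 2.07 and 2.46 CPM against 11.1, 38.5 and 1.84 CPM, and its call was lost without old replicate 2 (adjusted p = 0.0985).

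Other lipid genes moved in both directions. Srebf1, the activator of lipogenic genes, was lower in old, at 200, 264 and 119 CPM in young and 43.8, 93.0 and 72.8 CPM in old libraries (-1.48 ± 0.31, adjusted p = 0.00209; -1.75 and 0.00447 without old replicate 2). Acacb, the acetyl-CoA carboxylase that restrains fatty acid oxidation, was higher, at 25.5, 38.0 and 19.5 CPM against 74.7, 139 and 44.6 CPM (1.64 ± 0.33). Over all genes tested, 4.42% were higher and 6.78% lower, and the lists here hold few genes. Of 16 lipogenic genes 3 were higher and 1 lower. Of 24 genes of fatty acid oxidation and ketogenesis 4 were higher and 0 lower, and none was called without old replicate 2. Pdk4, which inhibits pyruvate dehydrogenase, was at 65.9, 53.3 and 34.2 CPM in young and 128, 1933 and 31.3 CPM in old libraries, and only old replicate 2 was far above the rest. In cholesterol synthesis and uptake 2 of 22 were lower, among them Sc5d, a sterol synthesis enzyme, at 902, 1196 and 1033 CPM in young and 438, 301 and 675 CPM in old libraries (-1.15 ± 0.28). None of the 22 was called without old replicate 2.

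Secreted growth regulators and stress genes included some of the largest higher differences. Of 25 growth factor and TGF-beta genes 4 were higher and 1 lower, and 3 and 0 without old replicate 2. Over all genes tested, 4.42% were higher and 6.78% lower. Fgf21, a hormone made by the stressed or fasting liver, was at 4.09, 2.07 and 0.986 CPM in young and 163, 21.9 and 40.3 CPM in old libraries. Every old library was above every young one, and old replicate 2 was the lowest of the old ones (4.88 ± 1.08, adjusted p = 0.00409; 5.30 and 0.00678 without it). Inhbe, the activin E subunit, was at 70.6, 85.1 and 99.3 CPM against 655, 396 and 182 CPM (2.27 ± 0.55; adjusted p = 0.0263 without old replicate 2). Of 20 unfolded protein and heat shock genes 4 were higher, and 2 without old replicate 2. Trib3, a pseudokinase induced by ATF4, was at 3.59, 3.88 and 4.68 CPM in young and 111, 7.70 and 21.5 CPM in old libraries (3.53 ± 0.73, adjusted p = 0.00235). Ddit3, which encodes CHOP, was at 12.9, 8.28 and 10.1 CPM against 115, 7.29 and 30.7 CPM. The ages overlapped for Ddit3 through old replicate 2, and the difference was 2.27 ± 0.55, or 2.77 without it (adjusted p = 0.00113).

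**Figure D4:**
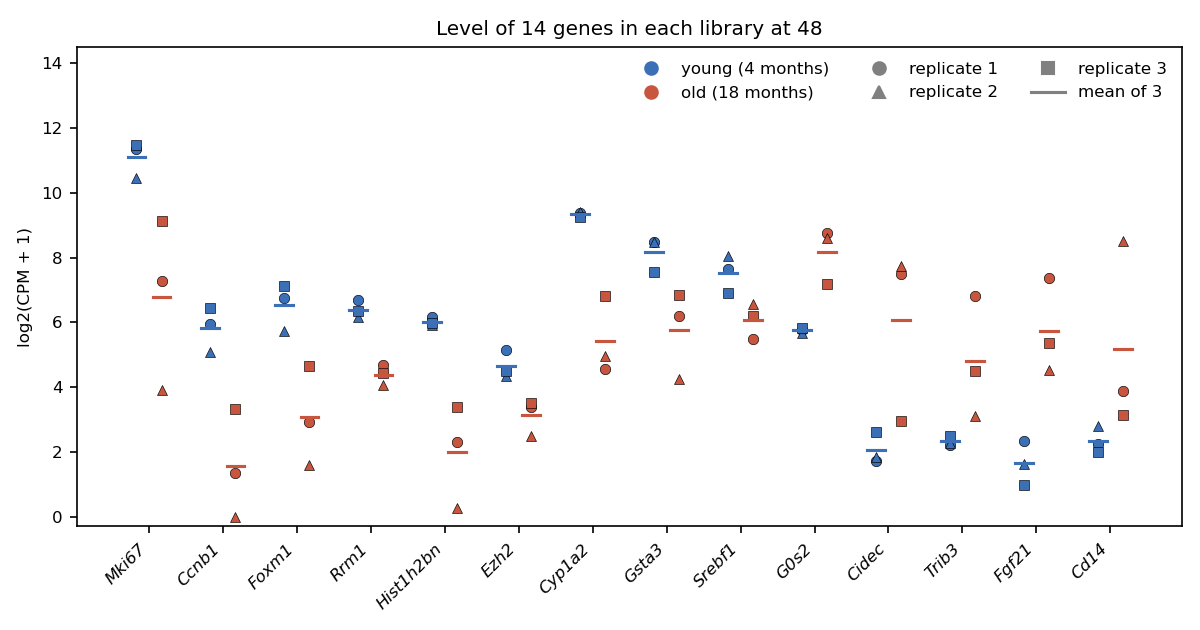
Level of 14 genes in each library at 48 as log2(CPM + 1), with color for age, marker shape for replicate and a bar for the mean of the 3 log values. Cell cycle genes, Cyp1a2, Gsta3 and Srebf1 were below young in every old library, while Cd14 was far above young in old replicate 2 only.

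Rgs16, a regulator of G protein signalling, was the gene called in the fit of the 6 libraries alone (adjusted p = 0.00518). It had 8 counts in the 3 young libraries (0.490, 0.776 and 0.493 CPM) and 633 counts in the old ones (39.8, 61.0 and 31.3 CPM). Its young level was at or near 3 counts per library, so the fitted log2 difference of 6.2 ± 1.6 depends on the prior count. Before regeneration it was at 510 to 903 CPM in young and 616 to 942 CPM in old libraries, and the difference of age differences was not called (adjusted p = 0.103).

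Several of the largest higher calls rested on old replicate 2. Cd14, a lipopolysaccharide co-receptor, was at 13.8, 364 and 7.77 CPM in old and 2.96 to 5.95 CPM in young libraries. Ier3, an immediate early gene, was at 13.6, 220 and 6.14 CPM, and Klf4, a transcription factor, at 5.56, 69.1 and 5.73 CPM in old libraries. Lepr, the leptin receptor, was at 139, 1046 and 93.7 CPM in old and 10.1 to 35.2 CPM in young libraries. None of these 4 was called without old replicate 2, with adjusted p from 0.193 for Ier3 to 0.925 for Klf4. Npnt (nephronectin, adjusted p = 0.0541) and Tnc (tenascin C, 0.258), both matrix proteins, were not called without it either.

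In other functional lists few members were called, where 4.42% of all genes tested were higher and 6.78% lower. In lists this short such shares also give few calls, so the low counts are not particular to these lists. Of 34 ribosome biogenesis genes 1 was higher, the nucleolar Mybbp1a (0.78 ± 0.24), whose old values of 135, 274 and 94.1 CPM overlapped the young ones. Without old replicate 2 its log2 difference was 0.22 (adjusted p = 0.646), and no member of the list was called. Of 26 acute phase genes 1 was higher, Il1rn, the interleukin-1 receptor antagonist, at 4.74, 10.3 and 5.67 CPM in young and 36.0, 10.9 and 20.2 CPM in old libraries (1.71 ± 0.55; adjusted p = 0.0365 without old replicate 2). Saa1, a major acute phase protein, was at 1790, 1756 and 1304 CPM against 1129, 1696 and 1056 CPM (adjusted p = 0.885). Of 20 clock genes 1 was lower, Usp2, a deubiquitinase with a daily rhythm (-1.97 ± 0.61), which was not called without old replicate 2 (adjusted p = 0.202). None of 25 interferon response genes was called.

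Markers of other cell types differed in some lists, and their part in the other results was not tested. The 24 stellate cell and matrix genes summed to 2212 to 2435 CPM in young and 2997 to 5342 CPM in old libraries. Most of each sum was Fn1, fibronectin, which hepatocytes also make, and through Fn1 the sum was highest in old replicate 2. Of the 24, 4 were higher and 1 lower, with 0 called without old replicate 2. Fn1 was at 1742, 1639 and 1559 CPM in young and 2404, 4215 and 2216 CPM in old libraries (0.84 ± 0.23). Col1a1, a fibrillar collagen, was at 17.8, 23.8 and 22.9 CPM against 48.0, 18.4 and 15.7 CPM (adjusted p = 0.79). Endothelial markers summed to 1024 to 1225 CPM in young and 1171 to 1535 CPM in old libraries. Of 22, 2 were higher, Vwf, von Willebrand factor (1.20 ± 0.33), and Stab1, a scavenger receptor (0.55 ± 0.16), while 4.42% of all genes tested were higher. Stab1 was not called without old replicate 2 (adjusted p = 0.217). The scavenger receptor Stab2 was at 63.2, 52.3 and 32.0 CPM against 44.5, 70.9 and 60.3 CPM. Kupffer cell, monocyte and macrophage markers summed to 1073 to 1307 CPM in young and 1036 to 1641 CPM in old libraries. Of these, 3 of 22 were higher (Cd14, Itgam and Spp1), none without old replicate 2, and Clec4f, a resident Kupffer cell lectin, was at 168, 198 and 138 CPM against 92.5, 34.0 and 212 CPM.

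The remaining marker lists were low in level. Neutrophil markers summed to 5.42 to 13.7 CPM in young and 15.1 to 55.3 CPM in old libraries, highest in old replicate 2, and 0 of 5 tested were called. T, B and NK cell markers summed to 18.0 to 34.3 CPM in young and 12.9 to 41.1 CPM in old libraries. Cholangiocyte and progenitor markers summed to 94.9 to 126 CPM in young and 219 to 685 CPM in old libraries, and most of each old sum was Ly6d. Of 8 tested, 2 were higher and 0 lower, with 0 called without old replicate 2, while 4.42% of all genes tested were higher. The 2 were Ly6d and Spp1, and Spp1 is also counted among the macrophage markers above. The list's median log2 difference was 0.45, and members ranged from -1.47 to 2.62. There, Ly6d, a cell surface antigen, was at 27.0, 19.1 and 71.5 CPM in young and 168, 428 and 126 CPM in old libraries (2.62 ± 0.71; adjusted p = 0.144 without old replicate 2). Of the 9 adipocyte markers, Adipoq, Plin1 and Ucp1 were at 0 in all 6 libraries, and the sum reached 62.5 CPM in old replicate 1 through Cidea. Of the 11 pancreatic acinar markers 5 were at 0 in all 6 libraries. Erythroid markers summed to 12.4 to 18.7 CPM in young and 13.3 to 16.8 CPM in old libraries. Of the fetal liver genes 1 of 8 was higher, Aldoa, a glycolytic aldolase (1.03 ± 0.31; 0.63 and adjusted p = 0.297 without old replicate 2), and Afp, alpha-fetoprotein, was at 5.88, 6.99 and 5.91 CPM against 6.00, 21.5 and 17.8 CPM (adjusted p = 0.0972).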

How the data were processed

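The deposited tables hold whole-number counts per gene symbol, 1 table per library, not normalized (21955 symbols, 0 of them ERCC spike-ins). The submitters' processing notes name bcl2fastq 2.20.0, Trimmomatic 0.39, STAR 2.7.5b, SAMtools 1.10, Picard 2.20.8, featureCounts and the build GRCm38/mm10. The use of strand is not given in the sources used here, so overlapping and antisense genes are uncertain. Counts of all 36 libraries (2328233 to 6034446) entered 1 edgeR 4.0.16 quasi-likelihood fit in R 4.3.3 with robust estimation, TMM scaling and a filter on low counts (filterByExpr over the 12 groups). Genes were called at an adjusted p under 0.05 (Benjamini-Hochberg over all genes tested). On simulated counts with 200 changed genes among 13436, the test called 85% of those changed 4-fold and 49% of those changed 2-fold, with 5 false calls among 139. The simulation gave every group the spread of the 36-library fit and held no outlying library. The biological coefficient of variation was 24.7% in that fit and 40.5% in the old group at 48, so these rates may not hold for the comparison at 48.

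Members and the 35 gene lists were chosen with earlier results of these data known, so lists carry no test. Named genes were the 10 higher and 10 lower called genes with the largest difference, at least 5 CPM on average and no overlap between ages, the 2 members of each list with the smallest p, a list of 16 genes reported whatever their result, and the 4 genes with the smallest p for each difference of age differences. The first and last parts left out predicted genes, RIKEN clones, pseudogenes, Olfr and Vmn genes and symbols that read as dates. Some genes that this rule names are not reported here. Alternatives were other scalings and filters, DESeq2 1.42.0, limma 3.58.1 voom with sample quality weights, the 6 libraries alone, a term for Y-linked transcripts, a replicate block and leaving out each library. Replicate numbers recur in both ages, and same-numbered libraries deviated from their group means with correlations of -0.16, 0.01 and -0.22, so the numbers were not taken to pair samples. With nothing tying libraries to separate animals beyond the design text, p-values rest on the spread between libraries. In the 36-library fit this spread was estimated over all 12 groups. It was smaller (biological coefficient of variation 24.7%) than in the old group at 48 (40.5%), so p-values and SE values there can be too small. Each SE was calculated back from the same fit, as the absolute log2 difference divided by the square root of the F statistic. The SE values are therefore approximate, also for genes near 0 counts, where the log2 difference depends on the prior count.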

Additional observations from a re-analysis of the deposited data

Results flagged for a closer look

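The age difference at 48 differed from the age difference before regeneration for 186 genes, and from that at 72 for 303 genes, each by a test of the difference itself in the 36-library edgeR fit. Against before, Cbx5 had a log2 value of -1.27, Gas2l3 of -2.90, Tmem194 of -2.51 and Atrn of 1.79. Against 72, Lin54 had a value of -1.37, Gas2l3 of -2.79, Eri2 of -2.22 and Cpxm1 of 5.31. Without old replicate 2, these 8 differences had adjusted p from 0.0015 (Atrn) to 0.0276 (Gas2l3 against before). No group at 48 held enough libraries for a test of single outlying values.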

How the results depend on the processing

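The count of 1505 genes called at 48 was within 1.5 times its value under median-of-ratios and total-count scaling, both other filters, DESeq2, the term for Y-linked transcripts, libraries without Y-linked transcripts, the replicate block (1570) and the non-robust fit, the last chosen after seeing the data. With 1 library left out it ranged from 685 to 2194. It was 840 with voom quality weights, 1 for the 6 libraries alone, 443 for these without old replicate 2, 234 for these with voom quality weights and 1 for these with the replicate block. The 186 calls for 48 minus before became 94 with no filter, 514 with DESeq2, 303 with the Y-linked term and 191 with the replicate block, and ranged from 18 to 961 with 1 library left out. The 303 calls for 48 minus 72 became 162 with total-count scaling, 188 with no filter, 198 with voom quality weights and 306 with the replicate block, and ranged from 45 to 825. Equal replicate numbers did not mark pairs here. Of 73 named genes called, 27 lost their call without old replicate 2, and 0 reversed in any alternative run. In the 6 libraries alone 70 of the 73 were tested, and 69 lost their call. When only the libraries at 48 without old replicate 2 were fitted, 28 of the 70 tested kept their call and 42 lost it. Signs turned only in named genes that were not called. With 1 library left out, Cyp4a12b ranged from -2.20 to 5.15, Col1a1 from -0.33 to 0.63, Ccnd1 from -0.91 to 0.26 (positive without old replicate 2), Klf1 from -0.51 to 0.52 and Cela1 from -0.18 to 0.39. Col1a1 was -0.28 and Alas2 0.013 in libraries without Y-linked transcripts, Cyp4a12b -0.14 with the replicate block, Ccnd1 0.29 in the 6 libraries alone without old replicate 2 and Cela1 -0.0933 with voom quality weights. The cause was not tested. Depth limits genes near 3 counts per library, such as Rgs16 and Cidea in young liver.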

Other observations

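Genes higher in old liver both with and without old replicate 2 were read as a description, after their values were seen. They included Extl1, a glycosyltransferase family member, at 1.63, 3.88 and 1.72 CPM in young and 53.1, 7.90 and 32.7 CPM in old libraries. Arhgef2, an activator of RhoA, was at 11.1, 11.1 and 12.1 CPM in young and 59.8, 16.8 and 77.1 CPM in old libraries. Cntnap1, a contactin-associated protein, was at 4.74, 5.17 and 9.61 CPM in young and 105, 30.8 and 21.5 CPM in old libraries. Only genes whose values did not overlap between the ages were considered, so in these 3 genes every old library was above every young one by selection. For Extl1 and Arhgef2, old replicate 2 was the lowest of the old libraries.

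Old replicate 2 was also low for genes that the other old libraries held near the young level. C8a, a complement component, was at 24.3 CPM against 1221 and 1412 CPM in the other old libraries and 1181 to 1555 CPM in young ones. Serpina1e, a protease inhibitor gene with close paralogs and therefore uncertain counts, was at 3.85 CPM against 1094 and 579 CPM. Hdc, histidine decarboxylase, was at 182 CPM against 11.3 and 11.2 CPM, and Fbf1, a centriole protein, at 371 CPM against 21.6 and 14.3 CPM.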
